A study of Mus musculus with 12 samples.

Results

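Catalase (Cat) and 9 other genes of redox metabolism (Me3, Sod1, Sod2, Gpx1, Gpx4, Prdx1, Txn1, Txnrd1 and Nnt) were examined in group 2 innate lymphoid cells (ILC2s), tissue lymphocytes that make IL-5 and IL-13. Cat and Me3 were chosen by their difference between the genotypes in these same libraries, and the other 8 as enzymes of antioxidant defence, to ask whether they differ along with Cat and Me3. All 10 members were found among 29542 genes and all 10 passed the filter on low counts, which left 14431 genes. Because Cat and Me3 were selected on the genotype difference, their genotype values are a description and carry no test here. Adjusted p values printed for them between genotypes show only where they lie against the threshold that chose them. They are not support for a difference.

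The cells came from skin-draining lymph nodes of mixed bone marrow chimeras. Every host was a CD45.1 congenic mouse that had been irradiated with 950 cGy and had then received CD45.2 Rag1-/- marrow and CD90.1 WT marrow in equal parts, and the strain label is C57BL6. The 12 libraries form 4 groups of 3: WT cells (congenic marker CD90.1) and Rag1 knockout cells, each at 8 and at 20 weeks after transplant. All hosts received IL-33 on 7 days before harvest, at 30 ng in each cheek and 240 ng in the peritoneum, so no group shows unstimulated ILC2s, and both genotypes of a chimera developed in the same kind of host. Nothing in the labels ties each of the 3 libraries in a group to its own animal. The p-values then measure only how these samples spread, which may be technical. The sex and age of the mice are not given in the labels. The Rag1 transcript did not bear out the labels. It had 0 reads in the 6 WT libraries and up to 0.979 CPM in those labelled knockout, with 0 in 1 of these. Values so near the floor do not show the labels to be wrong either. The libraries are therefore called knockout-labelled, and every direction between genotypes rests on the labels as given.

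Summed estimated reads lay between 11433625 and 32529806 per library. Values are given as read counts scaled to library size with TMM factors (CPM) when libraries are compared, and as TPM, which also accounts for transcript length, when genes are compared. The libraries of 8 weeks were less alike than those of 20 weeks. WT replicate 2 had the lowest mean correlation with its group (0.844 across 7952 genes) and knockout-labelled replicate 3 the next (0.864), and this pair is called the libraries that stood apart. WT replicate 3 was close to them at 0.883, the other 8-week libraries lay between 0.901 and 0.927, and the 20-week libraries between 0.946 and 0.977. The 10 genes with most reads held 24.5% of the reads of knockout-labelled replicate 3 of 8 weeks, and between 8.85% and 15.0% elsewhere. The ILC2 markers Gata3, Il1rl1 and Klrg1, and the general leukocyte gene Ptprc, were present in every library, at no less than 554, 167, 1022 and 516 CPM. These genes are not limited to ILC2s, so their presence does not exclude other cells. Since these are bulk samples, fewer cells with a transcript and less of it per cell cannot be told apart.

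Cells remove reactive oxygen in steps. Superoxide dismutases turn superoxide into hydrogen peroxide, which catalase breaks down in peroxisomes and which glutathione peroxidases and peroxiredoxins reduce with electrons from glutathione and thioredoxin. Those electrons come from NADPH, to which mitochondrial malic enzyme (Me3) and nicotinamide nucleotide transhydrogenase (Nnt) contribute. Many of these genes are targets of NRF2 (Nfe2l2), a transcription factor held in check by KEAP1 and released by oxidants.

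Cat (ENSMUSG00000027187, chromosome 2, 103453849 to 103485160, minus strand, GRCm38) encodes the peroxisomal enzyme that splits hydrogen peroxide into water and oxygen. The WT libraries of 8 weeks held 168, 190 and 168 CPM, and the knockout-labelled libraries of that time 115, 114 and 106 CPM. The values of 20 weeks were 173, 181 and 165 CPM for WT and 129, 120 and 114 CPM for knockout-labelled cells. The lowest WT library lay above the highest knockout-labelled library at both times, and the 3 libraries of each group lay close together.

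The log2 difference of Cat averaged over times was -0.58 (SE 0.10), which is 0.668-fold, with -0.65 (SE 0.14) at 8 weeks and -0.52 (SE 0.14) at 20 weeks. Cat lay just inside the threshold that chose it, an edgeR adjusted p under 0.05, at an adjusted p of 0.0407, Me3 lay at 0.00097, and the other 8 members all lay outside at 0.9999. Across 24 other ways of processing, the Cat difference stayed between -0.61 and -0.52, while its adjusted p ranged from 7.7e-08 (DESeq2) to 0.197 (replicate block within time) and was under 0.05 in 8 of them. Nearly all Cat reads (98.5% to 100.0%) were assigned to 1 transcript, Cat-201, which has 13 exons and 2613 bases and is annotated as protein coding. The shorter coding transcript Cat-202 had a mean of 0.817 TPM and at most 2.67 TPM. Of the 20-base words in Cat-201 only 1.85% also occur in transcripts of other genes, so its estimate rests mostly on sequence found in Cat alone.

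Me3 (ENSMUSG00000030621, chromosome 7, 89632392 to 89854359, plus strand, GRCm38) encodes a mitochondrial malic enzyme that turns malate into pyruvate and yields NADPH. Its level at 8 weeks was 16.3, 15.9 and 23.4 CPM in WT and 48.6, 60.1 and 69.8 CPM in knockout-labelled cells. At 20 weeks it was 44.2, 36.2 and 44.1 CPM in WT and 81.1, 91.4 and 101.5 CPM in knockout-labelled cells. Knockout-labelled libraries were higher than WT at each time without overlap, and in both genotypes the 20-week libraries lay above those of 8 weeks.

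The log2 difference of Me3 between genotypes was 1.41 (SE 0.15) averaged over times, which is 2.65-fold. It was 1.68 (SE 0.21) at 8 weeks and 1.14 (SE 0.21) at 20 weeks. Cat was lower and Me3 higher in the knockout-labelled cells, and the 6 WT and 6 knockout-labelled libraries did not overlap for either gene; this held for 52 of all genes tested (0.36%).

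**Figure D1:**
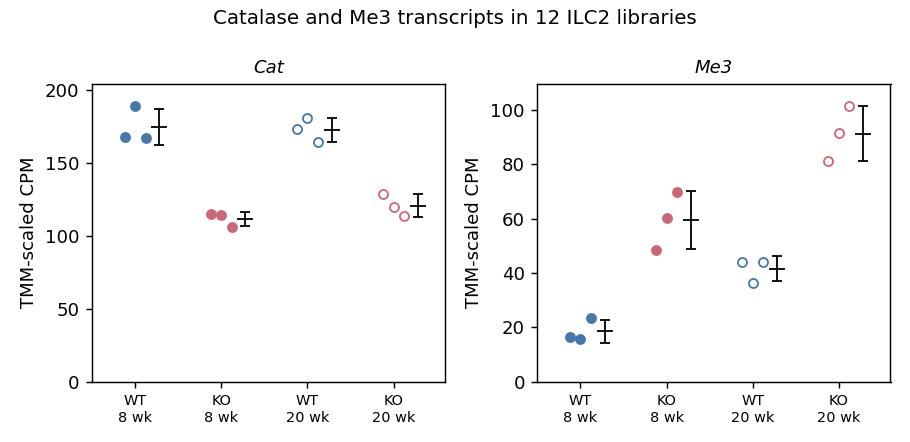
Level of Cat (left) and Me3 (right) in TMM-scaled CPM for each of 12 libraries in 4 groups. Blue points are WT, red points knockout-labelled (KO) libraries, filled at 8 and open at 20 weeks, and black bars are the mean and SD of the 3 libraries. Cat is lower in every knockout-labelled library, at most 129 CPM against at least 165 CPM in WT, and Me3 is higher in knockout-labelled cells and at 20 weeks.

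The Me3 difference did not sit on the transcript that encodes the enzyme. Between 90.1% and 98.7% of the Me3 reads of a library were assigned to Me3-207, a transcript of 4 exons and 3036 bases (chromosome 7, 89632534 to 89643673) that GENCODE lists as a processed transcript with no coding sequence. Me3-202, the protein-coding transcript of 14 exons and 4485 bases (89632703 to 89854359), stood at 0 to 0.259 TPM. The 2 transcripts share 198 exonic bases, 183 of them within the coding sequence of Me3-202. The place where they part is shown because it separates the transcript that differed from the one that encodes the enzyme. Each line gives 30 shared bases of the same exon end (last base 89633093) in lower case and then, in capitals, the first 30 bases of the next exon, on the plus strand of GRCm38 as the GENCODE M21 transcript sequences give them.
Me3-202: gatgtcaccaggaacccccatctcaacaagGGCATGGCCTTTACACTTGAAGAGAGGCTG
Me3-207: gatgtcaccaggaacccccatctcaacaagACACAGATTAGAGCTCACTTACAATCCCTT

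After the shared exon Me3-202 continues at base 89736628, far downstream, and Me3-207 at base 89639191, and most of Me3-207 is its last exon of 2647 bases. Me3-207 stood at 6.20, 5.26 and 8.67 TPM in WT at 8 weeks and at 18.0, 23.1 and 26.3 TPM in knockout-labelled cells of that time. At 20 weeks it stood at 19.2, 16.1 and 17.5 TPM in WT and at 38.7, 41.8 and 44.3 TPM in knockout-labelled cells. The pattern of the gene is thus the pattern of this 1 transcript.

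Me3-202 held at most 21.5 estimated reads in any library, and 0 in 4 of the 6 libraries of 8 weeks. When only transcripts annotated as protein coding were summed, an alternative added after seeing this split, the Me3 log2 difference turned to -0.57 (edgeR adjusted p = 1) and that of Cat stayed at -0.60 (edgeR adjusted p = 0.0489). In Me3-207, 23.3% of the 20-base words also occur in transcripts of 174 other genes, and how much of its estimate came from those words was not tested. An antisense gene that overlaps the first exons of Me3, A230065N10Rik, had reads in 1 library, at 0.0816 CPM.

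**Figure D2:**
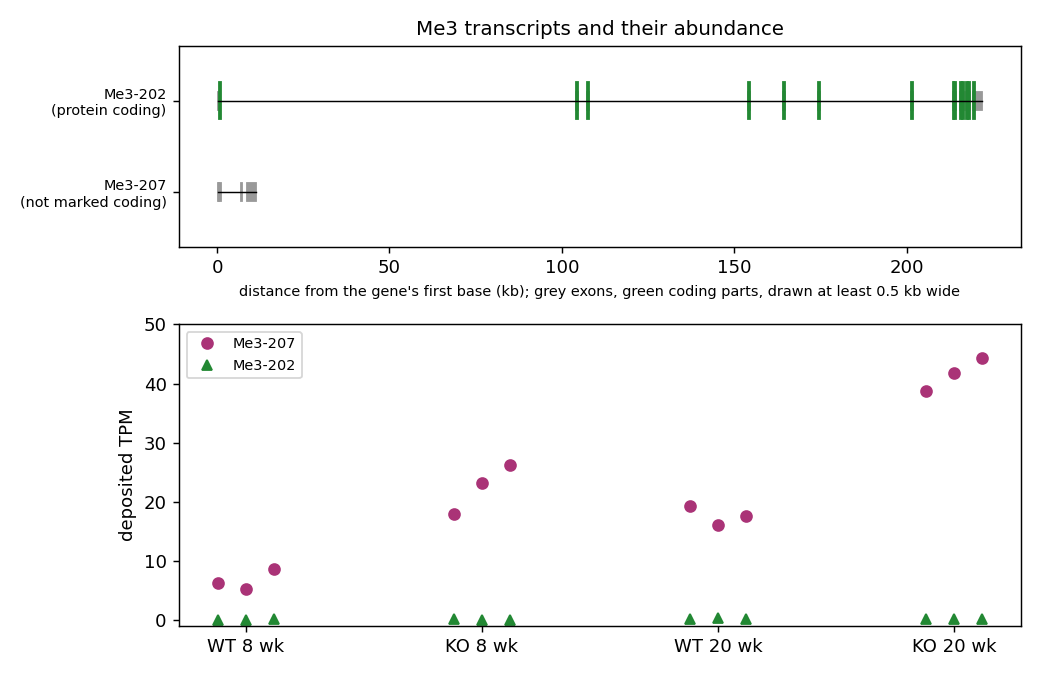
Top, exons (grey) and coding parts (green) of Me3-202 and Me3-207 by distance in kb from the first base of the gene. Bottom, deposited TPM of the 2 transcripts in each of the 12 libraries, with circles for Me3-207 and triangles for Me3-202. Me3-207 runs from 5.26 to 44.3 TPM and has no coding part, while Me3-202 stays at or under 0.259 TPM.

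None of the other 8 enzymes was called along with Cat and Me3. Averaged over times, 0 of 8 were called between genotypes by edgeR, against 0.222% of all genes, and 0 of 8 had an unadjusted p under 0.05. DESeq2 and limma-voom also called 0 of 8, against 0.528% and 0.215% of all genes. At 8 weeks 0 of 8 were called against 0.201% of all genes, and at 20 weeks 0 of 8 against 0.0554%. At 8 weeks 0 of 8 had WT and knockout-labelled libraries that did not overlap, against 5.63% of all genes, and at 20 weeks 0 of 8, against 11.4%. The backgrounds are low enough that a count of 0 in 8 genes does not set this group apart from other genes. Their log2 differences averaged over times ran from -0.19 (Nnt) to 0.37 (Sod2), with a median of -0.03 beside 0.01 for all genes.

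The superoxide dismutases did not differ between genotypes beyond their spread. Sod1, the cytosolic copper and zinc enzyme, was at 676, 902 and 930 CPM in WT and 943, 936 and 684 CPM in knockout-labelled cells at 8 weeks. The 20-week libraries held 685, 728 and 604 CPM in WT and 589, 746 and 655 CPM in knockout-labelled cells. The groups overlapped at both times, and the averaged log2 difference was 0.01 (SE 0.14, 95% interval -0.30 to 0.31).

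Sod2, the manganese enzyme of mitochondria, was at 144, 122 and 132 CPM in WT and 98.8, 109 and 462 CPM in knockout-labelled cells at 8 weeks. The 462 CPM belongs to replicate 3, one of the libraries that stood apart, and the other 11 libraries all lay between 98.8 and 144 CPM. The averaged log2 difference of Sod2 was 0.37 (SE 0.32, interval -0.33 to 1.07) with that library and -0.17 without it.

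Of the peroxidases, Gpx1, a selenoprotein that reduces hydrogen peroxide with glutathione, was at 456, 344 and 318 CPM in WT and 566, 439 and 292 CPM in knockout-labelled cells at 8 weeks. The values of 20 weeks were 281, 275 and 238 CPM in WT and 277, 310 and 295 CPM in knockout-labelled cells. Its averaged log2 difference was 0.18 (SE 0.17, interval -0.18 to 0.54), so the genotypes overlapped and did not differ beyond their spread.

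Gpx4, which reduces lipid peroxides in membranes and holds off ferroptosis, was at 471, 555 and 426 CPM in WT and 459, 442 and 320 CPM in knockout-labelled cells at 8 weeks. All 6 libraries of 20 weeks lay between 315 and 400 CPM. Its averaged log2 difference was -0.17 (SE 0.13, interval -0.46 to 0.13). The transcript Gpx4-205 was at 545 TPM in WT replicate 2 of 8 weeks and at 0 in the other 11 libraries, so that library, which stood apart, also splits the reads of Gpx4 among transcripts in another way.

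Prdx1, a cytosolic peroxiredoxin that takes its electrons from thioredoxin, was at 1176, 739 and 1379 CPM in WT and 1134, 1127 and 1133 CPM in knockout-labelled cells at 8 weeks. The WT libraries spread widely around the 3 knockout-labelled ones. At 20 weeks Prdx1 was at 832, 794 and 870 CPM in WT and 798, 796 and 810 CPM in knockout-labelled cells, and its averaged log2 difference was -0.01 (SE 0.15, interval -0.33 to 0.32).

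In the thioredoxin system, Txn1, the small protein that passes electrons to peroxiredoxins, had a range of 149 to 278 CPM in the 8-week libraries, and one of 144 to 223 CPM in those of 20 weeks, with WT and knockout-labelled libraries interleaved. Its averaged log2 difference was -0.06 (SE 0.19, interval -0.47 to 0.35). Txnrd1, the selenoprotein that reloads thioredoxin from NADPH, was at 54.1, 66.2 and 59.9 CPM in WT and 57.3, 52.8 and 47.6 CPM in knockout-labelled cells at 8 weeks. By 20 weeks the levels were 66.5, 49.7 and 47.7 CPM in WT and 58.8, 52.0 and 46.7 CPM in knockout-labelled cells, and the averaged difference was -0.12 (SE 0.13, interval -0.40 to 0.16).

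Nnt, which makes mitochondrial NADPH at the expense of the proton gradient, was at 62.6, 52.0 and 45.2 CPM in WT and 46.7, 40.6 and 41.6 CPM in knockout-labelled cells at 8 weeks. At 20 weeks it was at 51.8, 45.3 and 44.0 CPM in WT and 51.6, 48.8 and 34.3 CPM in knockout-labelled cells. Its averaged log2 difference was -0.19 (SE 0.14, interval -0.49 to 0.11). The largest share of its abundance lay on Nnt-202 (mean 11.8 TPM), followed by Nnt-204, an intron-retaining transcript (3.75 TPM), Nnt-201 (2.34 TPM) and Nnt-205 (1.24 TPM). Some C57BL/6 substrains carry a deletion within Nnt; the strain label does not name a substrain, and estimates over whole transcripts do not bear on it.

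**Figure D3:**
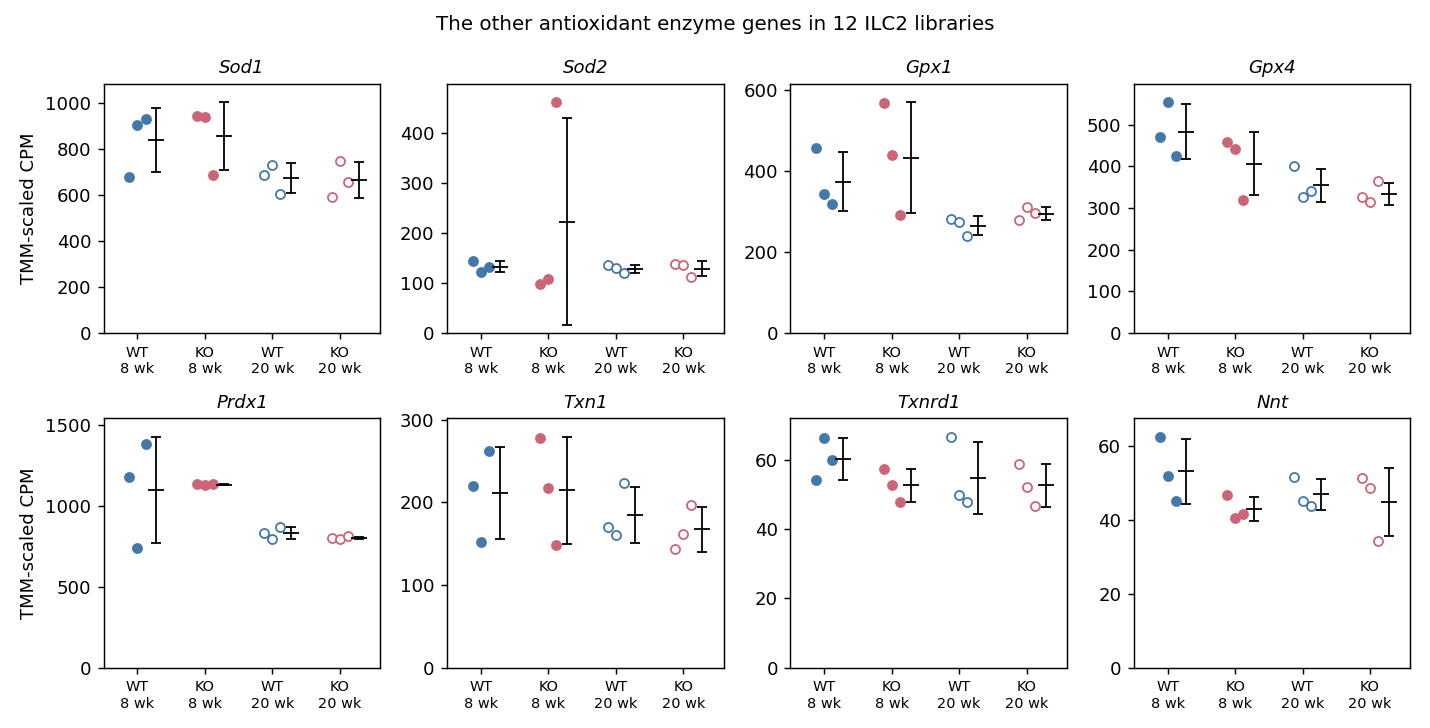
Level in TMM-scaled CPM of the 8 other enzyme genes in each of 12 libraries, 1 panel per gene, with colours, fills and bars (mean and SD of 3 libraries) as in the plot of Cat and Me3. WT and knockout-labelled libraries overlap at both times in every panel, and the single high Sod2 point of 462 CPM is knockout-labelled replicate 3 of 8 weeks.

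Averaged over times, the lowest bound among the 8 intervals was -0.49 (Nnt), above the Cat value of -0.58, and the highest was 1.07 (Sod2), below the Me3 value of 1.41. Cat and Me3 were chosen on this contrast, which can inflate their values, and they are given without an interval. The bounds therefore do not show that the 8 enzymes differ less than Cat or Me3. At 8 weeks alone the intervals were wider: those of Nnt and Gpx4 reached -0.74 and -0.66, beyond the Cat value of -0.65, and that of Sod2 reached 1.74, beyond the Me3 value of 1.68. Some of the estimates also depend on how reads are divided between similar genes: 45.5% of the 20-base words of the main Sod1 transcript and 56.6% of those of Prdx1 occur in transcripts of other genes, against under 1% for Gpx1, Gpx4, Txnrd1 and Nnt.

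**Figure D4:**
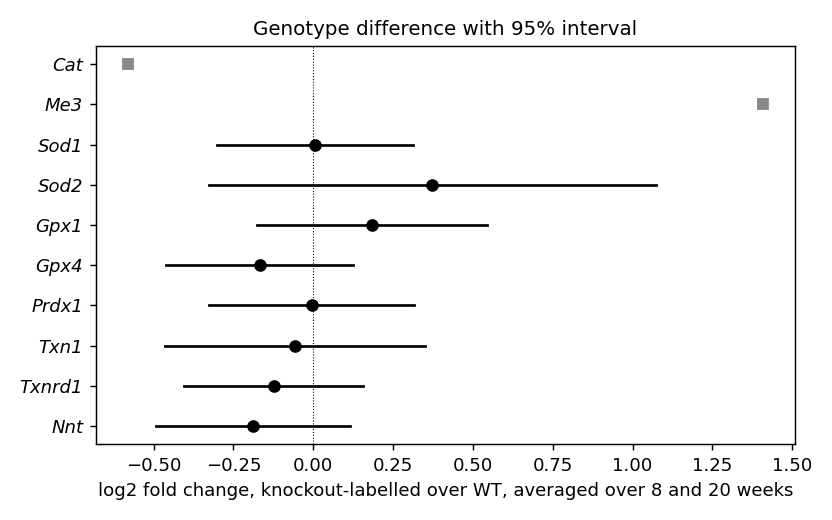
Log2 fold change of each member, knockout-labelled over WT, averaged over 8 and 20 weeks; circles with lines are the 8 tested enzymes with their 95% intervals, and grey squares are Cat and Me3, which were chosen by this value and carry no interval. All 8 intervals include 0.

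No member passed the test of a change in its genotype difference between 8 and 20 weeks. In the genotype by time comparison 0 of 10 members were called by edgeR against 0.097% of all genes, and 0 of 10 had an unadjusted p under 0.05. The change in the log2 difference was 0.13 (SE 0.20) for Cat and -0.54 (SE 0.29, interval -1.18 to 0.09) for Me3.

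Between 8 and 20 weeks Me3 rose in WT cells, from a mean of 18.6 ± 4.21 to 41.5 ± 4.60 CPM (SD, n = 3 each). The log2 difference was 1.16 (SE 0.21, edgeR adjusted p = 0.0327), which made Me3 the 1 member of 10 that was called, against 0.513% of all genes. It was higher in 3 of 3 libraries. This comparison uses the WT libraries that also chose Me3, so it is not independent of the choice, and the call was kept in 13 of 24 alternatives, with adjusted p from 0.000113 to 0.505. The highest of these, at a log2 value of 2.40, came from summing only protein-coding transcripts, which leaves few reads of Me3. The call was lost when any 1 WT library other than replicate 3 of 8 weeks was left out (adjusted p 0.0921 to 0.185), and also without knockout-labelled replicate 2 of 8 weeks (0.0635) or replicate 1, 2 or 3 of 20 weeks (0.0642, 0.0815 and 0.0703). In knockout-labelled cells the log2 difference of Me3 with time was 0.62 (SE 0.21, edgeR adjusted p = 0.462), with means of 59.5 ± 10.6 and 91.3 ± 10.2 CPM (SD, n = 3 each).

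Cat showed no difference with time beyond its spread, at -0.02 (SE 0.14) in WT and 0.11 (SE 0.14) in knockout-labelled cells on the log2 scale. The other 8 enzymes all had values below 0 in WT, from -0.49 (Gpx1) to -0.04 (Sod2) with a median of -0.25, beside a median of 0.03 for all genes, but none was called. Gpx4 had a log2 value of -0.45 (SE 0.19) in WT with an edgeR adjusted p of 0.346, and Gpx1 one of -0.49 (SE 0.23) with an adjusted p of 0.387. Libraries of 8 and 20 weeks in WT did not overlap for 3 of 10 members (Me3 higher, Gpx1 and Gpx4 lower), against 19.3% of all genes.

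In knockout-labelled cells 0 of 10 members were called with time against 0.0624% of all genes. The libraries of 8 and 20 weeks did not overlap for 2 of 10 (Me3 higher, Prdx1 lower), against 16.4% of all genes. The log2 value of Prdx1 was -0.50 (SE 0.21) and that of Gpx1 -0.55 (SE 0.23), each with an edgeR adjusted p of 0.554. In WT, Prdx1 had a log2 value of -0.40 (SE 0.21, edgeR adjusted p = 0.443), which became -0.62 and was called (adjusted p = 0.035) without the 2 libraries of 8 weeks that stood apart. With no harvest or sequencing date in the labels, time and a batch shared by the libraries of 1 time cannot be told apart.

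Ordered by mean TPM over the 12 libraries, the members ran from Sod1 (1515 TPM) and Prdx1 (1348 TPM) through Gpx4 (669 TPM), Gpx1 (417 TPM) and Txn1 (237 TPM) to Cat (71.6 TPM) and Sod2 (50.5 TPM). Me3 (22.7 TPM), Txnrd1 (20.5 TPM) and Nnt (19.4 TPM) were lowest, and the Me3 value is that of the transcript without a coding sequence. Among neighbours in this order, the ranges over libraries were separate only between Txn1 (lowest 162 TPM) and Cat (highest 98.8 TPM). By these levels the transcripts of Sod1, Prdx1, Gpx4 and Gpx1 exceeded that of Cat in every library.

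The wider antioxidant programme was read from 10 lists with 136 further genes, of which 128 passed the filter. In each of the 6 comparisons 0 of 128 were called by edgeR, against 0.0554% to 0.513% of all genes. At such shares a count of 0 in 128 genes does not set these lists apart from other genes. Averaged over times, 64 lay higher and 64 lower in knockout-labelled cells with a median log2 difference of 0.00, and 5 (3.91%) had an unadjusted p under 0.05, against 3.71% of all genes. DESeq2 and limma-voom also called 0 of 128 averaged over times, against 0.528% and 0.215% of all genes. The 6 WT and 6 knockout-labelled libraries overlapped for all 128, against 0.36% of all genes without overlap. At single times 4 of 128 (3.13%) did not overlap at 8 weeks and 11 of 128 (8.59%) at 20 weeks, Keap1, Hmox1 and Me1 among the latter, against 5.63% and 11.4% of all genes.

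The 5 with an unadjusted p under 0.05 were Hmox1, Ggt1, Sesn2, Me1 and Txnrd2, and their edgeR adjusted p values were 0.776 for Me1 and 0.9999 for the others. Hmox1, the heme oxygenase often read as a mark of oxidative stress, was scarce, at 0.901 ± 0.990 and 2.29 ± 1.47 CPM (SD, n = 3) in WT and knockout-labelled cells at 8 weeks and 0.498 ± 0.411 and 1.98 ± 0.892 CPM at 20 weeks. Me1, the cytosolic malic enzyme, was at 0.655, 0 and 1.47 CPM in WT at 8 weeks. The knockout-labelled libraries of that time held 3.59, 0.530 and 0.408 CPM, so the genotypes overlapped. Its log2 difference was 1.07 (SE 1.15) at 8 weeks and 6.82 (SE 1.98) at 20 weeks. At 20 weeks Me1 had 0 reads in the 3 WT libraries and 0.205 to 0.835 CPM in the knockout-labelled ones. With a floor of 3 counts per library, the knockout-labelled mean of 0.616 CPM was at least 4.31-fold the mean WT floor of 0.143 CPM. The lowest knockout-labelled library, at 0.205 CPM, lay below the highest WT floor of 0.216 CPM. Those knockout-labelled values rest on 7.44 to 29.1 estimated reads, and Me1 was not called between genotypes. Me2, the mitochondrial malic enzyme that uses NAD, stood at 45.7 to 154 CPM with a log2 difference of 0.49 (SE 0.25, interval -0.05 to 1.03).

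No gene of the NRF2 pathway was called between genotypes by edgeR, against at most 0.222% of all genes in these comparisons. Nfe2l2 lay between 72.9 and 104 CPM with a log2 difference of 0.04 (SE 0.13), and its inhibitor Keap1 had one of 0.17 (SE 0.19). Of their targets, Nqo1 (quinone reductase) had a log2 difference of -0.02 (SE 0.24), Srxn1 (sulfiredoxin, which repairs peroxiredoxins) of 0.43 (SE 0.31), and Gclm (a subunit of glutathione synthesis) of -0.08 (SE 0.21). Gclc, the catalytic subunit of that synthesis, had -0.15 (SE 0.17), and Gsr, which reduces oxidised glutathione, 0.17 (SE 0.16). In the NRF2 list 10 of 14 tested genes lay higher in knockout-labelled cells, with a median of 0.06, against 51.3% higher among all genes.

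Among peroxidases, Prdx2 had a log2 difference of 0.07 (SE 0.13) and mitochondrial Prdx3 of -0.03 (SE 0.14). Of 11 tested genes in the list of the thioredoxin system 3 lay higher and 8 lower, with a median of -0.08. In the list of NADPH-supplying enzymes 13 of 15 lay higher in knockout-labelled cells with a median of 0.15, against 51.3% higher among all genes, and none was called. It includes G6pdx, the entry enzyme of the pentose phosphate pathway, at 0.16 (SE 0.17), and mitochondrial Idh2 at 0.48 (SE 0.30).

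Peroxisomal genes, whose products share an organelle with catalase, lay higher in 11 and lower in 17 of 28 cases. Their median was -0.02 with no call, and 51.3% of all genes lay higher. Pex5, the receptor that imports catalase into peroxisomes, had a log2 difference of 0.38 (SE 0.24, interval -0.14 to 0.91). Foxo3, a transcription factor known to raise Cat and Sod2, had a log2 difference of 0.20 (SE 0.36) and ran from 63.9 to 345 CPM. Its highest value was in knockout-labelled replicate 3 of 8 weeks, a library that stood apart. In that library Sod2 was at 462 CPM, its highest value, and Cat at 106 CPM, its lowest. A link of Foxo3 to either gene was not tested.

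**Figure D5:**
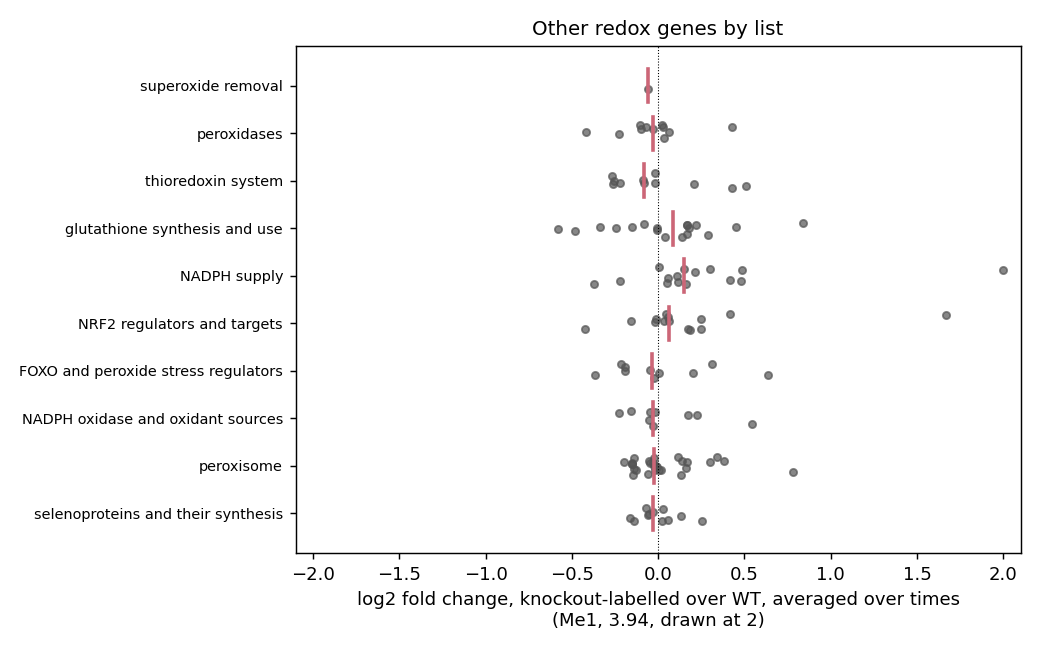
Log2 fold change, knockout-labelled over WT averaged over times, of the 128 tested genes in 10 redox lists, 1 grey point per gene with vertical scatter for visibility and a red line at the median of each list. The list medians lie between -0.08 and 0.15, and Me1, at 3.94, is drawn at 2 on the right edge.

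With time, the level of Txnip, which binds and inhibits thioredoxin, was higher at 20 weeks in every library. It was at 89.3, 109 and 157 CPM in WT at 8 weeks and 374, 249 and 331 CPM at 20 weeks, and at 128, 127 and 71.4 CPM and 180, 259 and 277 CPM in knockout-labelled cells. The groups did not overlap in either genotype, and the log2 difference in WT was 1.42 (SE 0.29, edgeR adjusted p = 0.0589). DESeq2 called it in both genotypes and limma-voom in WT (adjusted p 0.000572, 0.028 and 0.0492). In WT, DESeq2 called 6 of the 128 (4.69%) with time, against 3.23% of all genes: Txnip, Ggt1, Me1, Park7, Xdh and Selenok. The single call of limma-voom (0.781% of the list) stands beside 0.471% of all genes. In knockout-labelled cells DESeq2 called 3 (2.34%), Prdx4, Txnip and Park7, against 1.04% of all genes. Park7, a sensor of peroxide, was at 588, 735 and 432 CPM in WT at 8 weeks and 312, 331 and 346 CPM at 20 weeks, a log2 value of -0.83 (SE 0.20, edgeR adjusted p = 0.11).

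The NRF2 binding letters TGACNNNGC, the core of the antioxidant response element, were sought on both strands in the 250 bases before each start in the RefSeq promoter table (GRCm38.p6). Of the members 9 had an entry and 3 held a match, Prdx1, Sod1 and Txnrd1, against 11.5% of all genes in the table. Some genes have several starts. Counted by window, 3 of 14 member windows held a match, against 10.2% of all windows. Txnrd1 held it before 1 of its starts and not before the others. Of 107 list genes with an entry, 13.1% held a match. The 3 stretches are shown because each of these members has a start that carries the letters of the shared regulator. None of these 3 members was called between genotypes. The Prdx1 stretch is chr4:116685456-116685484, the Sod1 stretch chr16:90220696-90220724 and the Txnrd1 stretch chr10:82859104-82859132, all read on the plus strand, the strand of the gene, with the match (on the opposite strand) in capitals.
Prdx1: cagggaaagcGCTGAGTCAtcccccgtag
Sod1: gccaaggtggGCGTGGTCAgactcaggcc
Txnrd1: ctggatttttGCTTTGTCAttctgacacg

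The windows of Cat and Me3 did not hold these letters. A match is a description of the letters and not a bound site, and the Me3 window lies before the RefSeq start, which differs from the start of Me3-207.

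By Pearson's r of log2 CPM over the 12 libraries, among 7951 genes with a mean of at least 10 CPM, the 5 genes most like Cat were Ubash3b (0.897), Tnfsf8 (0.867), Sc5d (0.854), Jag1 (0.848) and Nt5e (0.845). All 5 had averaged log2 genotype values below 0, from -3.19 (Jag1) to -0.63 (Nt5e). This sign is largely set by the choice of Cat on its genotype difference. Those most like Me3 were Asb18 (0.942), Myo5a (0.900), Zfhx2 (0.889), Vwa5a (0.885) and Ets1 (0.885). Their genotype values were above 0, from 0.33 (Zfhx2) to 2.48 (Ets1), a sign likewise largely set by the choice of Me3. Cat and Me3 had an r of -0.794 with each other, which is largely set by their choice on opposite genotype differences. Among the other 8 enzymes the highest r with Cat was that of Nnt (0.533). These correlations are over libraries that share groups and are given as a description. Ubash3b, Sc5d, Nt5e, Myo5a, Vwa5a and Ets1 lie on chromosome 9, and Tnfsf8, Jag1, Asb18 and Zfhx2 on chromosomes 4, 2, 1 and 14. The share of the 7951 genes that lies on chromosome 9 was not counted. The WT and knockout-labelled cells came from different donor marrow, and the part of the donors in these values was not tested.

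Cat lies 1.8 Mb from Rag1 on chromosome 2. There were 15 tested protein-coding genes between Rag1 and Cat or within 500 kb of Cat. Of these, 0 were called between genotypes by edgeR, against 0.222% of all genes. An unadjusted edgeR p under 0.05 was found for 1 (Prr5l, log2 difference -0.59), against 3.71% of all genes. At these shares, counts of 0 and 1 in 15 genes do not set this stretch apart from other genes. The 15 ranged from -0.65 to 0.82 with a median of 0.11, 5 of them below 0. Whether marrow of the donors differed in sequence over this stretch was not tested.

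Markers of other cell types were read beside Cat, which red blood cells and macrophages also express. The summed erythroid markers (9 listed, 8 matched, Car1 at 0 in every library) lay between 30.8 and 63.8 CPM in WT and 10.7 and 55.2 CPM in knockout-labelled libraries at 8 weeks. At 20 weeks they lay between 26.2 and 31.5 CPM and 19.7 and 29.9 CPM. Those of macrophages and monocytes (11 listed, Fcgr1 at 0) lay between 6.92 and 25.9 CPM in WT and 11.5 and 22.7 CPM in knockout-labelled libraries, and those of neutrophils (10 listed, S100a9 and Ly6g at 0) were under 1 CPM in all. B cell markers (10 listed) lay between 173 and 385 CPM in WT and 193 and 592 CPM in knockout-labelled libraries at 8 weeks. The WT libraries of 20 weeks had 211 to 337 CPM of them, above all 3 knockout-labelled libraries (167 to 201 CPM). T cell markers (11 listed) lay between 804 and 887 CPM in WT and 512 and 876 CPM in knockout-labelled libraries at 8 weeks, and between 800 and 925 CPM and 637 and 801 CPM at 20 weeks. Mast cell and basophil markers (8 listed, Tpsab1 and Cma1 at 0) were at 22.1 CPM or less, and the ILC2 list (12 listed) ranged from 3944 to 5851 CPM. The part of these cells in the Cat difference was not tested.

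The file headers record 8 threads for 6 libraries and 24 for the other 6, a setting of the quantification run that was not evenly spread over the groups. Within the 8-thread libraries of 8 weeks, Cat was at 168 and 190 CPM in WT and 115 and 106 CPM in knockout-labelled cells, and Me3 at 16.3 and 15.9 CPM and 48.6 and 69.8 CPM. Among those of 24 threads at 20 weeks, the 1 WT library had 165 CPM of Cat and 44.1 CPM of Me3, and the 3 knockout-labelled ones 114 to 129 CPM and 81.1 to 101.5 CPM. Since the 6 WT libraries lie apart from the 6 knockout-labelled ones for both genes, no such subset could show another direction. With the thread number as a covariate the averaged log2 value of Cat was -0.56 and that of Me3 was 1.34. The edgeR adjusted p of Cat was then 0.133, above the threshold that chose it. Both log2 values come from the contrast that chose these genes.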

How the data were processed

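RNA sequencing libraries of 12 ILC2 samples were used. Per the file headers, the authors made each deposited file with sailfish 0.6.3 from 20-base words against Ensembl release 76, and it gives an estimated count of reads and a TPM for each transcript. The deposited TPM values are scaled to length and library sum. Other tools named in the submitters' processing notes, without a role, are featureCounts 1.4.5 (Subread), STAR 2.0.4b and bcl2fastq. The label names polyadenylated RNA, while the protocol describes ribosomal RNA removal and random priming; strand use is not given in the sources used here. The series text gives a different later time from the sample labels, whose 20 weeks were used.

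Of 86127 transcripts, 83739 (97.2%) had an identifier in GENCODE M21 (GRCm38), and their values were added up for 29542 genes; the rest held 1.01% to 1.54% of reads. Estimated counts were rounded, filtered with filterByExpr and fitted with edgeR 4.0.16 (quasi-likelihood, TMM, 4 group means, R 4.3.3) over 14431 genes, with Benjamini-Hochberg adjustment over all of them and a threshold of 0.05. The script was tested on simulated data. The shares of 20-base words found in other genes used M21 sequences, which can differ from those of release 76. Alternatives used DESeq2 1.42.0, limma 3.58.1, other scalings and filters, a replicate block, thread number, and leaving out libraries. Replicate numbers were not taken to pair samples, since the labels do not say what a number marks and not every same-numbered pair passed the check of shared deviations.

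The members and lists were chosen with earlier results of these data known. Named were all 10 members, fixed list genes whatever their values (1 of them is not reported here), the 5 genes most like Cat and Me3, Cat and Nnt transcripts of at least 0.5 mean TPM, and neighbours of Cat. Ggt1, Sesn2, Txnrd2, Park7, Xdh, Selenok and Prdx4 and the Gpx4 transcript were named after their values were seen. Each SE is the size of the log2 value divided by the square root of its quasi-likelihood F statistic. Intervals are of the fitted log2 values and use this SE with a t quantile. The floor of 3 counts covers counting error only.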

Additional observations from a re-analysis of the deposited data

How the results depend on the processing

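Over 24 alternatives averaged over time and 25 at single times, the counts of 0 of 8 enzymes and 0 of 128 list genes between genotypes did not change, nor did that of 0 for genotype by time. Me3 with time in WT was the 1 call of members, and it became 0 with only the groups compared or protein-coding transcripts only, 2 without both 8-week libraries that stood apart, and 0 to 1 when libraries were left out. Of the list genes with time in WT, 6 were called by DESeq2, 1 by limma-voom, 1 at a mean of at least 1 CPM and 0 to 2 with libraries left out (Txnip, and Park7 without WT replicate 3 of 8 weeks), and with time in knockout-labelled cells DESeq2 called 3. The causes were not tested, except that fewer samples or transcripts enter some fits. Counts over all genes ran from 19 to 76 for genotype averaged (32 in the report), 8 to 75 at 8 weeks (29), 2 to 32 at 20 weeks (8), 8 to 35 by time (14), 29 to 465 for time in WT (74) and 0 to 150 in knockout-labelled cells (9).

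Values near 0 changed sign. Sod1 (0.00549) became -0.00469 with RLE factors, -0.0111 with upper-quartile factors, -0.00463 with DESeq2, -0.00978 at a mean of at least 1 CPM, -0.0213 with thread number, -0.0126 with protein-coding transcripts, and -0.0612 to 0.0848 with libraries left out. Prdx1 (-0.00529) became 0.0227 with limma-voom, 0.00317 without a filter, 0.0187 with length-scaled counts, and -0.112 to 0.0912 with libraries left out. With the replicate block Prdx1 was 0.00954, and 0.0185 with the block within time. With the replicate block Cat had an edgeR adjusted p of 0.0818, and 0.197 with the block within time, and Me3 with time in WT had one of 0.0219. Deviations of same-numbered WT and knockout-labelled libraries correlated at 0.043 to 0.385, above 0 in 6 of 6 pairs but over 0.1 in 4, while 8 of 12 pairs of different number were below 0. Of 12 libraries 9 correlated best with their own number, a hint from the data and not from the design. Txn1 (-0.0578) ran from -0.178 to 0.0564, and Sod2 from -0.17 to 0.545, with libraries left out, and Sod2 was -0.198 without both that stood apart. Me3 on protein-coding transcripts was -0.565 averaged, -0.401 at 8 weeks and 2.4 with time in WT (1.16 in the report, edgeR adjusted p = 0.505 here). The causes of these changes were not tested. Depth and 3 libraries per group limit how narrow the intervals are.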
